A study of Mus musculus with 12 samples.

Results

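A set of 9 genes of muscle wasting was followed by mouse in hind limb muscle with and without αB-crystallin and HspB2, namely Fbxo32, Trim63, Foxo1, Foxo3, Mstn, Ddit4, Klf15, Cdkn1a and Gadd45a. They were chosen by symbol from the genes known for their part in muscle protein breakdown, and make up 9 of the 22923 gene symbols measured. All 9 were also among the 11945 genes tested, for which 3 or more mice had to reach 1 FPKM. FPKM counts sequenced fragments per transcript length and library size, so that levels of different genes can be set side by side.

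The study asked how muscle of αB-crystallin/HspB2 knockout (KO) mice differs from wild-type (WT) muscle under 2 diets, normal chow and high fat. RNA from proximal hind limb muscle was sequenced in 12 male FVB mice (FVB/N in the study's methods) at 22 weeks of age, 3 in each of 4 groups. The groups were WT on normal chow, WT on high fat diet, KO on normal chow and KO on high fat diet, and the WT samples carry the name Flox in their titles. The deletion is of the whole body and takes both neighbouring genes, Cryab and Hspb2, so that neither the tissue nor the gene behind a difference can be told apart.

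When muscle wastes, FOXO transcription factors and the glucocorticoid receptor raise the ubiquitin ligases atrogin-1 (Fbxo32) and MuRF1 (Trim63), which mark muscle proteins for the proteasome. Myostatin (Mstn), a TGF-β family ligand made by muscle fibres, holds back muscle growth through activin receptors and SMAD proteins, and follistatin binds and blocks it. Ddit4 (REDD1) restrains mTOR and Klf15 is a transcription factor, and both are targets of the glucocorticoid receptor, while Cdkn1a (p21) and Gadd45a are growth arrest genes that also rise in denervated or fasted muscle.

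In GENCODE M21 (GRCm38) all 9 genes are protein-coding. The 2 ligases lie at chr15:58175879-58214932 on the minus strand (Fbxo32) and chr4:134315120-134329629 on the plus strand (Trim63), and the FOXO factors at chr3:52268336-52353221 on the plus strand (Foxo1) and chr10:42181841-42276755 on the minus strand (Foxo3). Mstn lies at chr1:53061640-53068079 and Klf15 at chr6:90462576-90475238, both on the plus strand, and Ddit4 at chr10:59949669-59951834 and Gadd45a at chr6:67035096-67037457, both on the minus strand. FPKM values were deposited per gene symbol, so transcripts of a gene were not separated.

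Promoters of 8 of the 9 genes were matched in RefSeq (GRCm38.p6, the C57BL/6J reference rather than FVB). None was found for Fbxo32, so the promoter of that ligase was not searched. The 250 bases before the annotated start are shown for Trim63, whose window held both hormone and FOXO motifs, for Cdkn1a, the gene that differed most between the genotypes, and for Mstn. The Trim63 window is chr4:134314870-134315119, the Cdkn1a window, at the upstream of its start sites, is chr17:29090729-29090978, and the Mstn window is chr1:53061390-53061639, all on the plus strand. Capitals mark the glucocorticoid receptor motif (GNACA and TGTNC set 3 bases apart) and then the FOXO motif GTAAACA, read on the other strand, in Trim63. They mark the p53 core motif (CATG and CATG set 6 bases apart) in Cdkn1a, and in Mstn 4 E-boxes (CANNTG) and the TATA box (TATAAA).
Trim63: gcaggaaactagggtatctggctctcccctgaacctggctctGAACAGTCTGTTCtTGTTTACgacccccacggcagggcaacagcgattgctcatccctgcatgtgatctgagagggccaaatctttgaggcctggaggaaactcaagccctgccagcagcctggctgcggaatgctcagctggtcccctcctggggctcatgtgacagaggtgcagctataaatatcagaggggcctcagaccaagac
Cdkn1a: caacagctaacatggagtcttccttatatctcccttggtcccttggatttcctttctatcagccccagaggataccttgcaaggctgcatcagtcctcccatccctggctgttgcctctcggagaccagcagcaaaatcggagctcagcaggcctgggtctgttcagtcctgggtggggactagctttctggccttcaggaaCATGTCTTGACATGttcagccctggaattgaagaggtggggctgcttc
Mstn: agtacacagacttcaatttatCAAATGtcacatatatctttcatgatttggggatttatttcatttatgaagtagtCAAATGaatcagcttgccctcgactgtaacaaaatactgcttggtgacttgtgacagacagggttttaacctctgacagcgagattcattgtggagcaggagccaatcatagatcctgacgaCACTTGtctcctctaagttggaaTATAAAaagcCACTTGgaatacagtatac
Both strands were searched, and the p53 motif was added after the Cdkn1a sequence had been read. In Trim63 the glucocorticoid receptor motif lay at -208 to -196 and the FOXO motif at -194 to -188 from the start, without overlap. Of all 32851 promoter windows of this length, 0.387% held the glucocorticoid receptor motif, 3.17% the FOXO motif and 0.490% the p53 motif. The Cdkn1a match lay at -48 to -35, and the second Cdkn1a window did not hold these letters. The TATA box of Mstn lay at -29 to -24, and 12.4% of windows held one, while 66.2% held an E-box. Neither the FOXO nor the glucocorticoid receptor motif was found in the windows of Mstn, Foxo1, Foxo3, Ddit4, Klf15, Cdkn1a or Gadd45a. The TATA box and 3 E-boxes of the Trim63 window are left in lower case. A match is a description of the letters in the window and not evidence of binding.

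Cryab lay at 412 to 837 FPKM in the 6 WT mice and at 0.845 to 1.75 FPKM in the 6 KO mice, and Hspb2 at 81.5 to 103 FPKM and at 0.353 to 1.92 FPKM. These levels follow the sample titles, while the genotype label of 6 mice goes against their title, 3 on WT high fat diet, 1 on KO chow and 2 on KO high fat diet. Summed FPKM lay between 499509 and 691621 in 11 libraries, and a single microRNA entry (Mir324) carried most of the total in the third mouse of KO on chow. Muscle fibre genes (9 listed, 9 in the files) summed to 24604 to 67211 FPKM, although Myh4 was listed at 0 in all 12 libraries and Acta1 in 2. Both are muscle fibre genes, so these zeros may be failed estimates, and the sum is not read as fibre content. Lymphocyte markers (5 of 5 in the files) summed to 42.6 FPKM in 1 WT chow mouse (replicate 2) and to 48.5 FPKM in 2 KO chow mice (replicates 1 and 3), against 0.223 to 3.41 FPKM in the other 9 mice. Results were therefore also computed without these 3 libraries, a setting chosen after seeing the data.

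Cdkn1a was the only one of the 9 genes to differ between KO and WT past the threshold, a Benjamini-Hochberg adjusted p of 0.05 in limma over all genes tested, and it was higher in KO muscle on both diets. It encodes p21, an inhibitor of cyclin-dependent kinases, and its gene spans 29090976 to 29100727 of chromosome 17, plus strand (GRCm38). In WT mice it was at 7.02, 8.43 and 12.3 FPKM on chow and at 7.63, 13.3 and 12.1 FPKM on high fat diet. In KO mice it was at 17.4, 24.5 and 39.2 FPKM on chow and at 31.4, 50.7 and 23.2 FPKM on high fat diet. Every KO mouse stood above every WT mouse, as in 1.72% of all genes tested. Over both diets the KO mice averaged 31.1 ± 12.2 FPKM and the WT mice 10.1 ± 2.75 FPKM (SD, n = 6), a ratio of 3.06.

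With diets averaged, the log2 fold change of Cdkn1a, computed like all those given here on FPKM + 1, was 1.48 (SE 0.24, 95% interval 0.95 to 2.01, limma adjusted p = 0.0245), rank 34 by p among all genes. In this comparison 0.862% of all genes passed the threshold, 0.645% higher in KO, against 1 of the 9 genes. The exact permutation test within diets gave p = 0.005 (two-sided), the smallest its 400 arrangements can give. Any gene whose KO mice all stand above the WT mice within each diet gets this p, so it restates the lack of overlap. It is unadjusted for the other such tests of the 9 genes, which were chosen with earlier results known. On chow alone the log2 fold change was 1.41 (limma adjusted p = 0.263) and on high fat diet 1.55 (limma adjusted p = 0.0817). The effect of diet on Cdkn1a was 0.23 in WT and 0.37 in KO on the log2 scale, with limma adjusted p of 0.899 and 0.644. In the order of group means, KO chow exceeded WT high fat by more than their pooled SD, while the diets did not differ beyond it within a genotype.

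The Cdkn1a call was close to the threshold. It was lost in limma with no filter on low values (adjusted p = 0.0531), and without replicate 1 of WT chow (adjusted p = 0.0882), replicate 1 of WT high fat (0.0508), replicate 3 of KO chow (0.0528), or replicates 1 or 2 of KO high fat (0.0675 and 0.0694). The log2 fold change stayed between 1.33 and 1.61 when any 1 mouse was left out. Without the 3 libraries with lymphocyte markers it was 1.43 (limma adjusted p = 0.223).

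**Figure D1:**
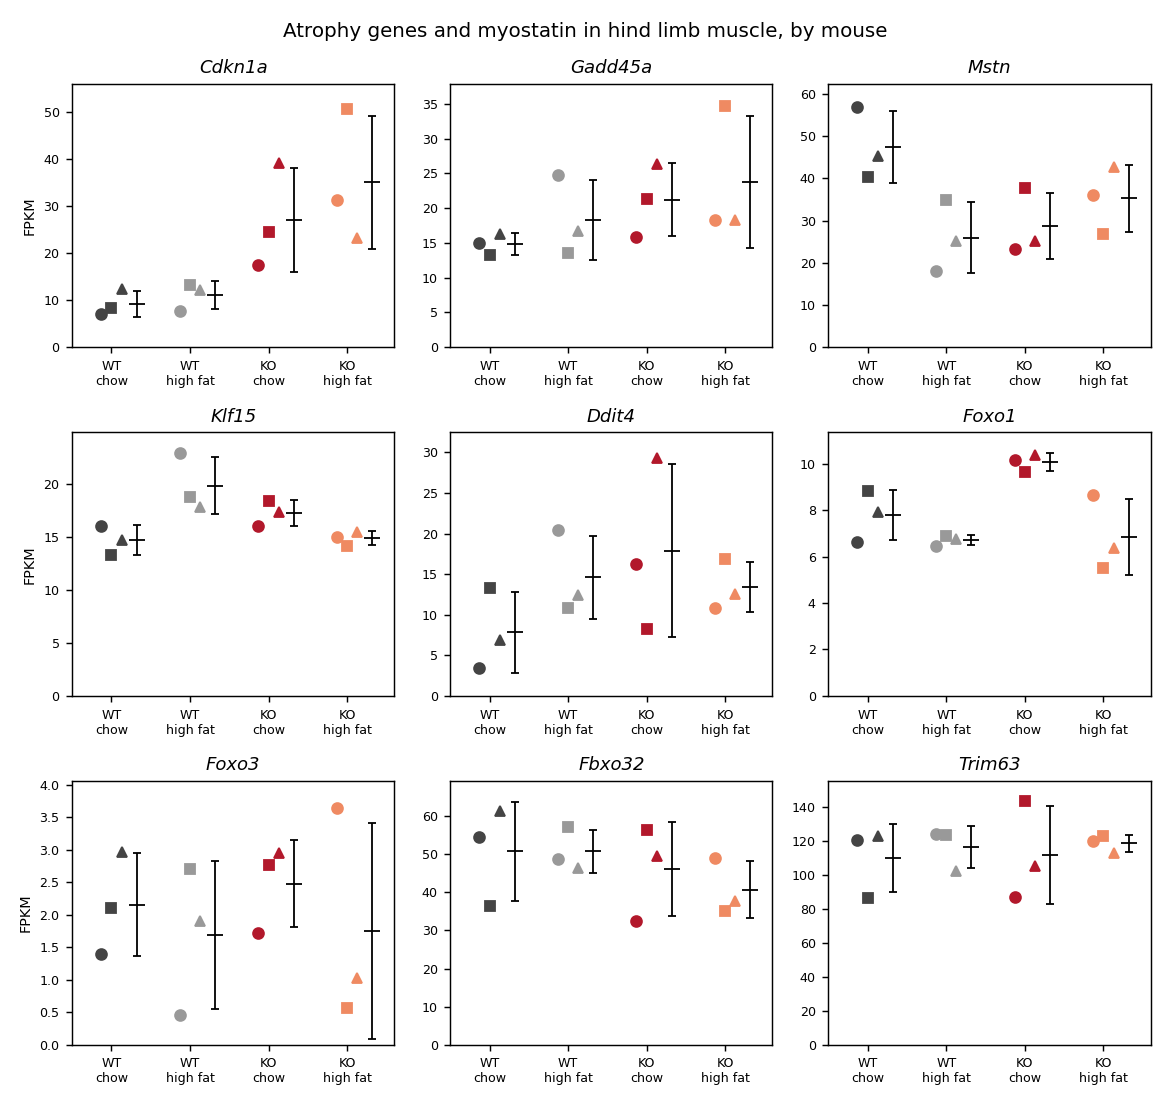
FPKM (y axis, linear from 0) of each gene in each of the 12 mice (x axis, 4 groups of 3). Symbols mark replicates 1 (circle), 2 (square) and 3 (triangle), and bars show the group mean ± SD. All 6 KO mice stand above all 6 WT mice for Cdkn1a, Mstn has its highest mean in WT mice on chow, and Trim63 and Fbxo32 overlap in all groups.

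Macrophage markers (3 of 4 in the files) also ran higher in KO muscle, where their sum was 40.1 to 56.3 FPKM on chow and 42.3 to 81.4 FPKM on high fat diet, against 26.1 to 36.2 and 9.03 to 25.6 FPKM in WT. The KO mouse with the highest Cdkn1a, replicate 2 on high fat diet at 50.7 FPKM, also had the highest macrophage sum, at 81.4 FPKM. The same mouse had the highest fibroblast marker sum, at 1037 FPKM. It also had the lowest muscle fibre sum, at 24604 FPKM, which is not read as fibre content because of the Acta1 and Myh4 zeros. Fibroblast markers (4 of 4) summed to 643 to 1037 FPKM in KO mice and 472 to 749 FPKM in WT mice, with overlap. Adipocyte markers (5 of 5) summed to 1654 to 4266 FPKM in KO mice and 583 to 2051 FPKM in WT mice, with overlap. In bulk muscle, more cells of a type and more RNA per cell cannot be told apart, and the part of these cell types in the Cdkn1a difference was not tested.

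**Figure D2:**
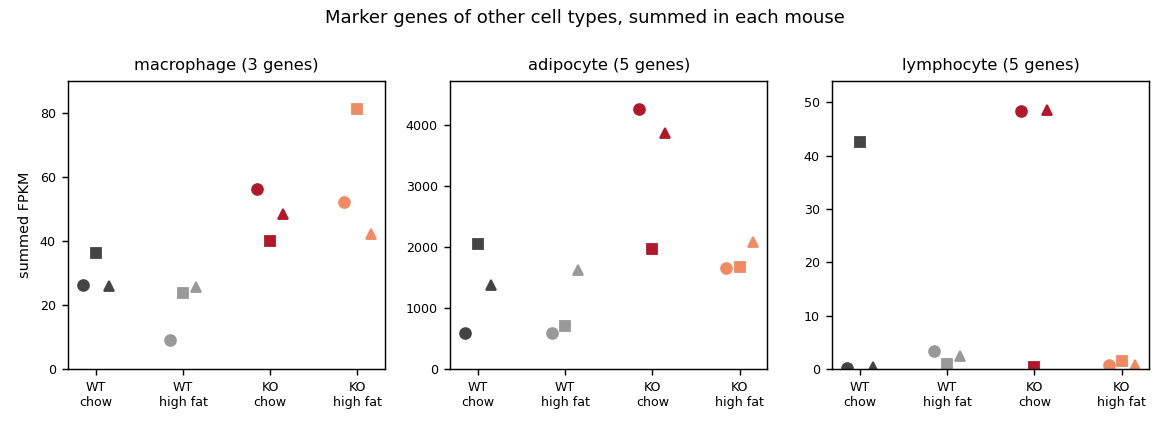
Summed FPKM (y axis, linear from 0) of macrophage, adipocyte and lymphocyte marker genes in each mouse (x axis, 4 groups of 3), with symbols for replicates 1 (circle), 2 (square) and 3 (triangle). The 6 KO mice lie above the 6 WT mice in the macrophage panel, and 3 chow mice stand apart in the lymphocyte panel at 42.6, 48.5 and 48.5 FPKM.

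Gadd45a, a stress-induced gene, was at 15.0, 13.2 and 16.2 FPKM in WT on chow and at 24.7, 13.6 and 16.7 FPKM in WT on high fat diet. The KO mice had 15.9, 21.4 and 26.4 FPKM on chow and, on high fat diet, 18.3, 34.7 and 18.3 FPKM. All 4 groups overlapped, and the highest value was from the KO high fat mouse with the highest Cdkn1a. The genotype difference averaged 0.40 on the log2 scale (SE 0.19, limma adjusted p = 0.208), with an exact permutation p of 0.09, and was 0.25 without that mouse, replicate 2.

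Myostatin had its highest mean in WT mice on chow, and its diet difference ran opposite ways in the 2 genotypes without passing adjustment. Mstn was at 57.0, 40.4 and 45.2 FPKM in WT on chow, and at 17.9, 34.8 and 25.2 FPKM in WT on high fat diet. The 3 chow mice all stood above the 3 high fat mice. In KO it was at 23.2, 37.6 and 25.1 FPKM on chow and at 36.2, 26.9 and 42.8 FPKM on high fat diet, and these overlapped.

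In WT, mean Mstn was 47.5 ± 8.54 FPKM on chow and 26.0 ± 8.45 FPKM on high fat diet (SD, n = 3), a log2 difference of -0.88 (SE 0.26, limma adjusted p = 0.265). In KO the means were 28.7 ± 7.84 and 35.3 ± 7.99 FPKM, with a log2 difference of 0.30 (limma adjusted p = 0.618). The diet effect in KO less that in WT was 1.18 on the log2 scale (SE 0.36, limma adjusted p = 0.618). KO less WT was -0.73 on chow (limma adjusted p = 0.277) and 0.45 on high fat diet (adjusted p = 0.414). The high fat difference was 0.22 without replicate 1 of WT high fat and 0.68 without replicate 2 of WT high fat.

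In the order of group means, WT chow exceeded KO high fat by more than the pooled SD, and the other neighbours, KO chow and WT high fat, did not differ beyond it. Without the 3 libraries with lymphocyte markers the Mstn diet difference was -0.99 in WT and -0.11 in KO, where its sign turned, and the difference between the 2 was 0.87 (limma adjusted p = 0.999). The genotype difference on chow was then -0.42 (limma adjusted p = 0.996), with 1 KO chow mouse left. These comparisons share the chow mice of each genotype, so they are not independent of each other.

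Klf15, a transcription factor that raises amino acid breakdown enzymes, also had diet differences of opposite sign, and the reverse of those of Mstn. In WT it was at 16.1, 13.3 and 14.7 FPKM on chow and at 22.9, 18.7 and 17.8 FPKM on high fat diet. The KO values were 16.0, 18.4 and 17.3 FPKM on chow and, on high fat diet, 15.0, 14.2 and 15.5 FPKM. High fat mice were all above chow mice in WT and all below them in KO. In the order of means, WT high fat exceeded KO chow, and KO chow exceeded KO high fat, by more than the pooled SD, while KO high fat and WT chow did not differ beyond it.

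The log2 difference with diet was 0.41 in WT (SE 0.10, limma adjusted p = 0.189) and -0.20 in KO (adjusted p = 0.466). The difference between them was -0.60 (SE 0.15, limma adjusted p = 0.503). On high fat diet, KO mice were all below WT mice, by a log2 difference of -0.39 (limma adjusted p = 0.113), and on chow the difference was 0.22 (adjusted p = 0.311). Of the 9 muscle fibre genes 8 were tested, and with diet in WT 4 of them had a positive and 4 a negative difference, with a median of 0.05 against -0.01 for all genes. The 8 include Acta1, whose zeros in 2 libraries may be failed estimates, so these enter the counts and medians given here. At an unadjusted limma p under 0.05, 2 of the 8 were higher with diet in WT, Mb and Myh1 (both 0.73, limma adjusted p = 0.361 and 0.377). Des, Myh7, Ttn and Ckm had differences of -0.16, -0.16, -0.15 and -0.11. On high fat diet 3 of the 8 were higher and 5 lower in sign in KO, with a median of -0.07, and 2 were lower at that unadjusted p, Mb (-0.92, limma adjusted p = 0.109) and Myh1 (-0.95, adjusted p = 0.105). The part of fibre content in the Klf15 differences was not tested.

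Ddit4, the mTOR inhibitor REDD1, varied widely among the chow mice of both genotypes. It was at 3.43, 13.3 and 6.90 FPKM in WT on chow and at 20.4, 10.9 and 12.5 FPKM in WT on high fat diet. In KO it was at 16.2, 8.21 and 29.3 FPKM on chow and at 10.8, 16.8 and 12.6 FPKM on high fat diet. All pairs of groups overlapped, and of neighbours in the order of means KO high fat exceeded WT chow alone by more than the pooled SD. The coefficient of variation was 63.5% in WT chow and 59.4% in KO chow, and no comparison of Ddit4 passed adjustment. The log2 difference was 0.93 with diet in WT (SE 0.46, limma adjusted p = 0.655) and 1.09 with genotype on chow (SE 0.46, adjusted p = 0.287). With diet in KO it was -0.25, and this turned to 0.17 without replicate 3 of KO chow. With a mouse left out, the Ddit4 difference with diet in WT ranged from 0.51, without replicate 1 of WT chow, to 1.35, and that with genotype on chow from 0.67, without replicate 3 of KO chow or replicate 1 of WT chow, to 1.53. Without the 3 libraries with lymphocyte markers these differences were 1.35 (limma adjusted p = 0.290) and 0.64 (adjusted p = 0.996), and that with diet in KO was 0.62.

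Foxo1, a FOXO factor that raises both ligases, was highest in KO mice on chow. It was at 6.65, 8.83 and 7.90 FPKM in WT on chow, at 6.46, 6.89 and 6.75 FPKM in WT on high fat diet, at 10.2, 9.64 and 10.4 FPKM in KO on chow and at 8.65, 5.51 and 6.35 FPKM in KO on high fat diet. The 3 KO chow mice stood above the other 9 mice, and the other neighbours in the order of means did not differ beyond the pooled SD. Chow and high fat overlapped in WT and did not in KO. The log2 difference with diet was -0.52 in KO (SE 0.13, limma adjusted p = 0.353), -0.18 in WT (adjusted p = 0.800) and -0.35 on average (adjusted p = 0.194). On average over genotypes the exact permutation test gave p = 0.015 for Foxo1, unadjusted for the 18 such tests of the 9 genes by diet and by genotype. KO exceeded WT on chow by 0.34 (limma adjusted p = 0.281).

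Foxo3, which raises both ligases and autophagy genes, was the least abundant of the 9, with a mean of 2.02 FPKM over all mice. It ranged from 1.40 to 2.97 FPKM in WT chow, 0.454 to 2.71 FPKM in WT high fat, 1.72 to 2.95 FPKM in KO chow and 0.565 to 3.65 FPKM in KO high fat. All 4 groups overlapped, and the spread on high fat diet spanned most of the range seen. The difference with diet averaged -0.40 (95% interval -1.04 to 0.25, and -0.20 without replicate 1 of WT high fat) and with genotype 0.06 (-0.59 to 0.71, with its sign turned under quantile normalization) on the log2 scale. Changes within these intervals are not excluded by the data.

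The ubiquitin ligases themselves showed no difference past the adjusted threshold. Fbxo32, which encodes atrogin-1, was at 54.6, 36.3 and 61.3 FPKM in WT on chow and at 48.8, 57.2 and 46.4 FPKM in WT on high fat diet. In KO it was at 32.4, 56.4 and 49.5 FPKM on chow and at 49.2, 35.2 and 37.7 FPKM on high fat diet. Trim63, which encodes MuRF1, was at 120.4, 86.6 and 123 FPKM in WT on chow and at 124, 123 and 102 FPKM in WT on high fat diet. In KO it was at 86.9, 143 and 105 FPKM on chow and at 119.7, 123 and 113 FPKM on high fat diet. Both genes overlapped between all groups, and for Fbxo32 and Trim63, as for Foxo3 and Gadd45a, no neighbours in the order of means differed beyond the pooled SD.

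The log2 difference of Fbxo32 was -0.06 with diet (95% interval -0.42 to 0.29) and -0.23 with genotype (-0.59 to 0.13). With 1 mouse left out, the diet difference of Fbxo32 ranged from -0.18 to 0.0183. Without the 3 libraries with lymphocyte markers, which leaves 1 KO chow mouse, the diet difference of Fbxo32 was -0.33. Its genotype difference was -0.12 without replicate 1 of KO chow. For Trim63 it was 0.10 with diet (-0.18 to 0.39, with its sign turned under quantile normalization) and 0.02 with genotype (-0.26 to 0.30). Without the 3 libraries the Trim63 differences were -0.17 with diet (limma adjusted p = 0.772) and 0.13 with genotype (adjusted p = 0.570). Trim63 was the most abundant of the 9 genes per transcript length, with a mean of 114 FPKM that exceeded that of 94.8% of genes tested. Fbxo32 followed at 47.1 FPKM, Mstn at 34.4, Cdkn1a at 20.6, Gadd45a at 19.5, Klf15 at 16.7, Ddit4 at 13.4 and Foxo1 at 7.85 FPKM.

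**Figure D3:**
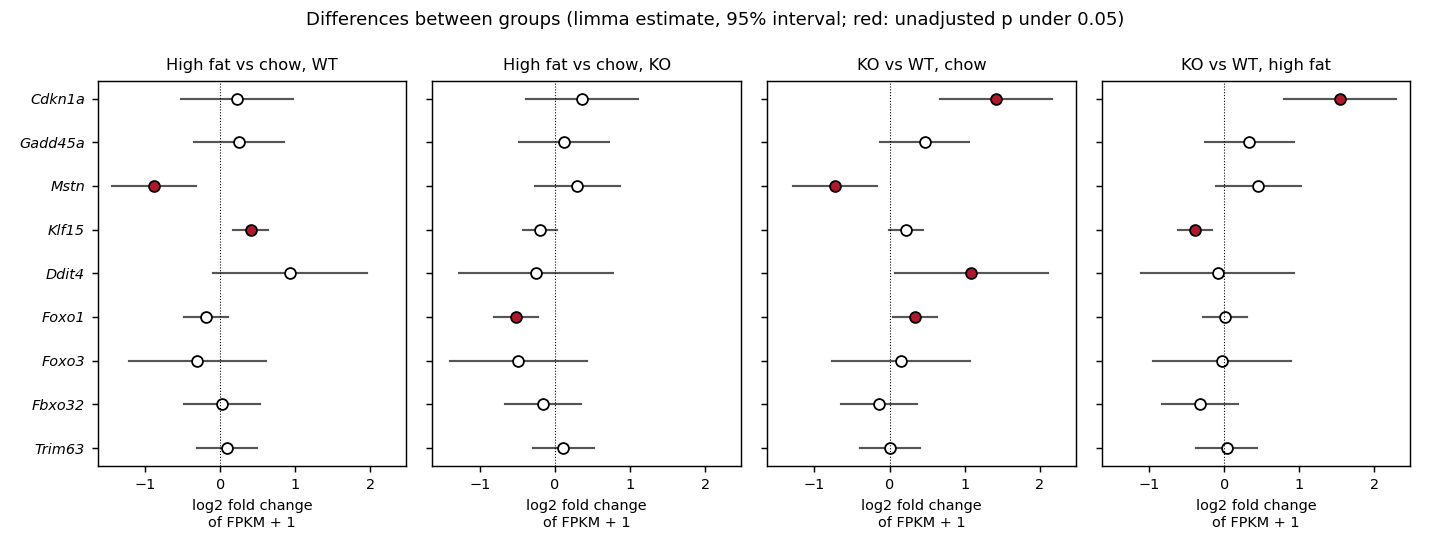
Log2 fold change of FPKM + 1 (x axis) for each gene (y axis) in the 4 comparisons of 2 groups, with 95% intervals from limma. Red points have an unadjusted p under 0.05, which 2 genes reach with diet in WT, 1 with diet in KO, 4 with genotype on chow and 2 with genotype on high fat diet, and none of them passed adjustment.

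Counted over the 9 genes, 0 passed the adjusted threshold in limma with diet in WT, where 0.1% of all genes did, and 0 with diet in KO, where 0% did. It was also 0 with genotype on chow (0.0586% of all genes), with genotype on high fat diet (0.109%), in the interaction (0%) and with diet averaged (0.0586%). At an unadjusted limma p under 0.05, 2 of 9 differed with diet in WT, against 8.12% of all genes, and 1 of 9 with diet in KO, against 11.3%. With genotype on chow 4 of 9 did, namely Cdkn1a, Mstn, Ddit4 and Foxo1, against 16.7% of all genes, and on high fat diet 2 of 9, Cdkn1a and Klf15, against 16.2%. In the interaction 2 of 9 did, Mstn and Klf15, against 6.25%, with diet averaged 1 of 9, Foxo1, against 13.9%, and with genotype averaged 1 of 9, Cdkn1a, against 26.5%.

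Groups did not overlap for 2 of 9 genes with diet in WT (13.1% of all genes), 2 with diet in KO (16.9%), 3 with genotype on chow (18.4%) and 2 with genotype on high fat diet (23.7%). The genes were Mstn and Klf15 in WT, Foxo1 and Klf15 in KO, Cdkn1a, Foxo1 and Mstn on chow, and Cdkn1a and Klf15 on high fat diet. With diets or genotypes pooled, Cdkn1a alone separated the genotypes (2.71% of all genes in either direction) and 0 of 9 separated the diets (0.728%). With so few genes these shares describe the 9 genes alone.

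The regulators and partners of these genes were read from 8 lists. The lists were chosen with earlier results of these data known, so their counts are a description and not a test. For genotype averaged over diets, the count of each list stands beside 26.5% of all genes in either direction at an unadjusted limma p under 0.05, and 0.862% past adjustment. Without the 3 libraries with lymphocyte markers 0 genes of the 8 lists passed adjustment for genotype. Among myostatin, activin and BMP genes (22 of 26 tested), 1 passed adjustment for genotype, and 5 were higher and 4 lower in KO at an unadjusted limma p under 0.05. The list's median log2 difference was 0.06, and 0.03 without the 3 libraries, against -0.02 for all genes tested in either fit. The gene past adjustment was Fst, which encodes follistatin, the secreted protein that binds myostatin and activin. Fst was at 1.68, 2.35 and 2.51 FPKM in WT chow, 1.32, 2.83 and 2.59 FPKM in WT high fat, 4.73, 4.03 and 4.56 FPKM in KO chow and 4.29, 7.32 and 5.24 FPKM in KO high fat. All KO mice were above all WT mice, with a log2 difference of 0.91 (SE 0.15, limma adjusted p = 0.0230). The Fst call was lost in limma with no filter on low values (adjusted p = 0.0519), without replicate 1 of WT chow (adjusted p = 0.0789), replicate 3 of KO chow (0.0703), replicate 2 of KO high fat (0.0694) or the 3 libraries with lymphocyte markers (0.328). Smad7, an inhibitory SMAD, had a log2 difference of -0.36 (limma adjusted p = 0.0561).

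Among FOXO family and target genes (15 of 15 tested), 1 passed for genotype, and 4 were higher and 2 lower at an unadjusted limma p under 0.05. It was Sesn3, a sestrin that restrains mTOR complex 1, at 0.460 to 0.994 FPKM in WT and 1.45 to 3.53 FPKM in KO mice, with no overlap. No WT mouse reached 1 FPKM, so Sesn3 passed the filter on low values through its KO mice alone. Its call and its lack of overlap are therefore not independent of that filter. The log2 difference was 0.85 (limma adjusted p = 0.0435). The Sesn3 call was lost in limma with no filter on low values (adjusted p = 0.0696), without replicate 1 of WT chow (adjusted p = 0.126), replicate 3 of WT chow (0.0516), replicates 1 or 2 of WT high fat (0.0792 and 0.0609), replicates 1 or 2 of KO high fat (0.0878 and 0.0997) or the 3 lymphocyte libraries (0.223). The list's median was 0.01 with genotype, against -0.02 for all genes tested. Pdk4, which shifts muscle from glucose to fat oxidation, had a log2 difference of 0.68 with diet (limma adjusted p = 0.275).

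Among p53 and ATF4 stress genes (16 of 16 tested), 1 passed for genotype, and 6 were higher and 2 lower at an unadjusted limma p under 0.05. Eda2r, a p53 target and receptor for ectodysplasin A2, was at 2.51 to 5.24 FPKM in WT and 5.50 to 12.5 FPKM in KO, with no overlap and a log2 difference of 1.05 (limma adjusted p = 0.0455). The Eda2r call was lost in limma with no filter on low values (adjusted p = 0.0798), without replicate 1 of WT chow (adjusted p = 0.126), replicate 3 of WT chow (0.0828), replicate 1 of WT high fat (0.0841), replicate 3 of KO chow (0.0867), replicates 1 or 2 of KO high fat (0.0926 and 0.106) or the 3 lymphocyte libraries (0.210). Asns, the ATF4 target asparagine synthetase, had a log2 difference of 0.95 with genotype (limma adjusted p = 0.0563) and -0.84 with diet (adjusted p = 0.183). Gadd45g had 0.57 with diet (limma adjusted p = 0.130).

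Among the glucocorticoid receptor and its targets (16 of 16 tested), 1 passed for genotype on average, and 6 were higher and 1 lower at an unadjusted limma p under 0.05. It was Hsd11b1, the enzyme that regenerates active glucocorticoid in tissue, at 16.5, 21.7 and 14.1 FPKM in WT chow and 10.7, 10.7 and 8.27 FPKM in WT high fat. KO muscle had 34.6, 24.9 and 49.3 FPKM on chow and, on high fat diet, 16.9, 19.2 and 13.7 FPKM. KO mice stood above WT mice within each diet, with a log2 difference of 0.84 (limma adjusted p = 0.0455), and the diet difference was -0.89 (adjusted p = 0.0752). The call was kept only without replicate 2 of WT chow, replicate 3 of WT high fat or replicate 2 of KO chow, and lost in the other 9 fits that left out a mouse (limma adjusted p = 0.0510 to 0.129), with no filter on low values (0.0832) and without the 3 lymphocyte libraries (0.217). Prodh, an enzyme of proline breakdown, had a log2 difference of -0.55 with diet (limma adjusted p = 0.0752).

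On chow, 9 of these 16 glucocorticoid genes were higher and 0 lower in KO at an unadjusted limma p under 0.05, against 16.7% of all genes in either direction, with a median log2 difference of 0.36 against -0.03 for all genes. With diet in KO, 0 were higher and 5 lower, against 11.3% of all genes, with a median of -0.24 against 0.03. These share the KO chow mice, and 0 of the 16 passed adjustment in either. Of the 3 KO chow mice 2 are libraries with lymphocyte markers, both at 48.5 FPKM. Without the 3 such libraries, which leaves 1 KO chow mouse, 7 were higher and 0 lower on chow (2.53% of all genes at that p) and 0 were higher and 4 lower with diet in KO (3.18%). The part of lymphocytes in these counts was not tested. Adipocytes also express Hsd11b1, and adipocyte markers had their highest median sum in the KO chow mice, at 3863 FPKM (1962 to 4266). A WT chow mouse at 2051 FPKM and a KO high fat mouse at 2078 FPKM lay above the lowest of them. The part of fat in the Hsd11b1 difference was not tested.

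Denervation response genes (10 of 13 tested) had 0 past adjustment for genotype, 6 higher and 0 lower in KO at an unadjusted limma p under 0.05, against 26.5% of all genes in either direction. Without the 3 lymphocyte libraries 6 were again higher and 0 lower, against 11.5% of all genes. All 10 tested had a positive difference, with a median of 0.52 against -0.02 for all genes tested. The listed genes below the filter are not among them. The list was chosen with earlier results of these data known, so its counts are a description and not a test. Chrna1, a subunit of the muscle acetylcholine receptor, was at 5.10 to 6.60 FPKM in WT and 6.86 to 18.9 FPKM in KO mice, with no overlap and a log2 difference of 0.84 (limma adjusted p = 0.0588). Myh3, the embryonic myosin heavy chain, was at 0.235 to 1.38 FPKM in WT and 1.74 to 10.1 FPKM in KO mice, also without overlap, with a log2 difference of 1.43 (limma adjusted p = 0.0588). Its KO mice were by themselves enough to carry Myh3 past the filter on low values. The sign and the lack of overlap of Myh3 are therefore not independent of that filter. Schwann cell markers summed to a median of 40.0 FPKM in WT chow, 82.4 in WT high fat, 158 in KO chow and 67.6 FPKM in KO high fat, and a WT chow mouse had the highest sum, at 207 FPKM.

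**Figure D4:**
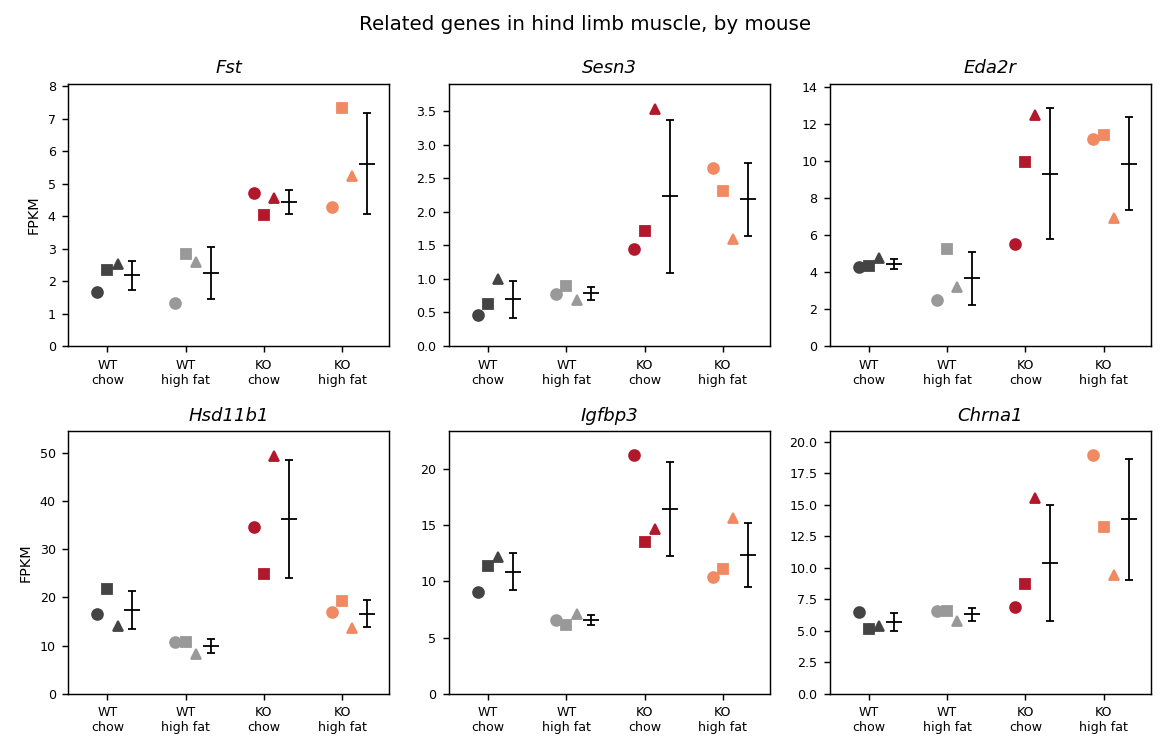
FPKM (y axis, linear from 0) of 6 genes from the related lists in each mouse (x axis, 4 groups of 3), with symbols for replicates 1 (circle), 2 (square) and 3 (triangle) and bars for the group mean ± SD. For Fst, Sesn3, Eda2r and Chrna1 all 6 KO mice stand above all 6 WT mice, while Hsd11b1 and Igfbp3 are higher in KO within each diet.

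Among IGF1, AKT and mTOR genes (16 of 16 tested), 1 passed for genotype, and 2 were higher and 1 lower at an unadjusted limma p under 0.05. It was Igfbp3, a carrier of IGF1 in the circulation, with a log2 difference of 0.67 with genotype (limma adjusted p = 0.0455) and -0.51 with diet (adjusted p = 0.183). Igfbp3 was at 9.05, 11.4 and 12.2 FPKM in WT chow, 6.56, 6.14 and 7.05 FPKM in WT high fat, 21.3, 13.5 and 14.6 FPKM in KO chow and 10.4, 11.1 and 15.6 FPKM in KO high fat. KO mice stood above WT mice within each diet. The Igfbp3 call was kept only without replicate 2 of WT chow, replicate 3 of WT high fat or replicate 2 of KO chow, and lost in the other 9 fits that left out a mouse (limma adjusted p = 0.0574 to 0.126), with no filter on low values (0.0798) and without the 3 lymphocyte libraries (0.353). Igf1 had a log2 difference of 0.53 with genotype (limma adjusted p = 0.0967).

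Of the ubiquitin system genes of muscle protein breakdown (16 of 16 tested), 0 passed adjustment, and 1 was higher and 2 lower in KO at an unadjusted limma p under 0.05. Fbxo21, an atrophy-induced F-box protein, had a log2 difference of 0.32 with genotype (limma adjusted p = 0.0605), and Asb2, a muscle ubiquitin ligase subunit, -0.41 (adjusted p = 0.117). The median was -0.09 against -0.02 for all genes. Of the clock genes (13 of 15 tested), 0 passed for genotype, 1 was higher and 2 lower at an unadjusted limma p under 0.05. With diet in KO 4 clock genes were higher and 0 lower, against 11.3% of all genes, also with 0 past adjustment.

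With diet averaged over genotypes, 0 genes of the 8 lists passed adjustment in limma, where 0.0586% of all genes did. At an unadjusted limma p under 0.05, which 13.9% of all genes reached, 4 clock genes were higher and 1 lower on high fat diet, 3 and 1 of the p53 and ATF4 genes, and 2 and 4 of the glucocorticoid genes. The counts were 2 and 0 for FOXO genes, 0 and 3 for IGF1, AKT and mTOR genes, and 1 and 1 for myostatin, activin and BMP genes, with 1 and 0 for both the ubiquitin and the denervation genes.

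Between mice of the same group, levels of the 9 genes were compared in 36 pairs, after group means had been removed from log2(FPKM + 1) over 12 mice. No pair passed adjustment (0 of 36), and 5 had an unadjusted exact permutation p under 0.05. Mstn and Ddit4 had the lowest p, with Pearson's r = -0.769 (permutation p = 0.00926) and Spearman's rho = -0.825 (permutation p = 0.00540). The adjusted values were 0.259 and 0.194, the lowest of the 36 for either measure, and r was -0.690 without the 2 mice farthest from the median of Mstn.

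Fbxo32 and Trim63 had the highest r, 0.834 (permutation p = 0.0170, adjusted p = 0.259) and rho = 0.783 (permutation p = 0.0224, adjusted p = 0.398), and r = 0.827 without the 2 farthest mice. Foxo1 and Foxo3 had r = 0.744 (permutation p = 0.0216, adjusted p = 0.259) and rho = 0.699 (permutation p = 0.0355, adjusted p = 0.398), and r = 0.781 without the 2 farthest mice. The remaining pairs with an unadjusted p under 0.05 were weaker without the 2 farthest mice. For Fbxo32 and Foxo3 r fell from 0.536 (permutation p = 0.0478, adjusted p = 0.344) to 0.416. For Trim63 and Klf15 it fell from 0.659 (permutation p = 0.0478, adjusted p = 0.344) to 0.419.

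**Figure D5:**
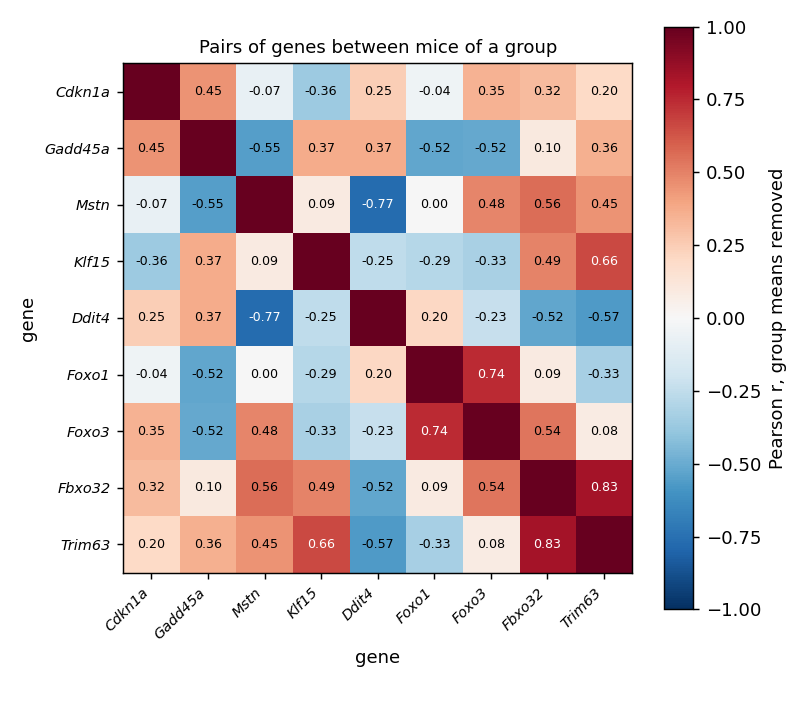
Pearson's r for each pair of the 9 genes (both axes) over 12 mice, with the group means removed from log2(FPKM + 1). Colours run from blue at -1 to red at 1, and Fbxo32 with Trim63 and Foxo1 with Foxo3 have the highest values, while Mstn with Ddit4 has the lowest.

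Over all 12 mice, each of the 9 genes was also set beside the genes whose log2(FPKM + 1) followed it most closely by Pearson's r, given as a description in which group differences and library are shared. Cdkn1a was followed by Itgb1 (r = 0.972) and Il20rb (0.970), and Mstn by Tirap (0.955) and Polk (0.937). Trim63 was followed by Akirin2 (0.941) and Zfp651 (0.897), and Fbxo32 by Pik3ca (0.907) and Jmy (0.903). For Foxo1 the genes were Cnot6l (0.943) and Vps13b (0.933), and for Foxo3 Pdpr (0.975) and Pds5a (0.975). Klf15 was followed by Pitx3 (0.940) and Echs1 (0.874), Ddit4 by Nfkbia (0.921) and Acss2 (0.882), and Gadd45a by Klhl30 (0.917) and Mknk2 (0.907).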

How the data were processed

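RNA from proximal hind limb muscle of 12 mice was sequenced as paired-end reads. The authors deposited 1 table of FPKM per mouse, without pooling, and the unit was read from the values. The submitters' processing notes name TopHat2 2.0.8b, Cuffdiff 2.1.1 and the mm10 build. Filters and annotation are not given in the sources used here. Depth in reads is unknown. The step between low values differed by at most 1.35 times between libraries.

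The mice were grouped by title. Where a symbol had several rows, that of highest mean entered. Values were taken to log2(FPKM + 1) and 11945 genes with at least 1 FPKM in at least 3 mice were tested with limma 3.58.1 (R 4.3.3), with an intensity trend and 4 group means, which left 8 residual degrees of freedom. Benjamini-Hochberg adjustment of its two-sided p-values ran over all genes tested. The threshold was 0.05. Fold changes on the log2(FPKM + 1) scale understate those of low genes. The 7 comparisons were diet in each genotype, genotype on each diet, the interaction, and diet and genotype averaged over the other factor. Averaged differences were also tested by exact permutation within the other factor (400 arrangements), and pairs of genes within groups. Where 3 mice are set against 3, an exact test cannot go below 0.10, so none is given. The fits were checked on simulated data with independent noise for each gene. That setting lacks differences between libraries that many genes share, so the check does not cover them. Replicates are separate mice.

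The 9 genes, the 8 lists of related genes and the marker lists were chosen with earlier results of these data known. All 9 genes are named. From each list, genes past the threshold and those with the smallest 2 p-values for averaged diet and genotype could be named, and for each of the 9 genes the 2 with the highest r. Positions are from GENCODE M21 and promoters from RefSeq, both GRCm38. NumPy 2.4.6, pandas 2.3.3 and SciPy 1.17.1 under Python 3.11.15 gave the other values. Alternatives were only the 2 groups compared, a block for replicate number, no filter on low values, a pseudocount of 0.1, each mouse left out in turn, median-of-ratios size factors, quantile normalization and robust variance moderation. Leaving out the 3 libraries with lymphocyte markers was added after the data were seen.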

Additional observations from a re-analysis of the deposited data

Results flagged for a closer look

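The diet difference of 2 genes differed between the genotypes by limma's interaction term before adjustment. Klf15 was higher on high fat diet in all 3 WT mice and lower in all 3 KO mice than in every chow mouse of the same genotype, and the diet difference in KO less that in WT was -0.60 on the log2 scale (limma adjusted p = 0.503). For Mstn it was 1.18 (limma adjusted p = 0.618), with all 3 WT high fat mice below all WT chow mice, while the KO mice overlapped. Both fail the adjustment over all genes, in which 0 genes passed and 746 had an unadjusted p under 0.05. Groups of 3 mice were not tested for single outlying samples.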

How the results depend on the processing

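Of 1235 alternative values for 64 fold changes of single genes, 1146 kept their direction and their side of the threshold, 54 lost the call, 20 gained one and 15 turned their sign. The cause of these changes was not tested. Among the 9 genes, 1 passed for genotype averaged over diets, 0 without a filter on low values, 0 without the 3 libraries with lymphocyte markers (a setting chosen after seeing the data), and 0 to 1 with a mouse left out. The counts over all genes moved more. For genotype averaged, 103 genes became 42 without the filter, 40 with the replicate block, 200 with quantile normalization and 11 without the 3 libraries, and 10 to 1200 with a mouse left out. For genotype on high fat diet, 13 became 24 without the filter, 5 with the block, 8 with only the 2 groups compared and 26 with quantile normalization, and 4 to 82 with a mouse left out. For genotype on chow, 7 became 4 with the block and 4 with only the 2 groups, and 4 to 14 with a mouse left out. For diet in WT, 12 became 7 with the block, 3 with only the 2 groups and 1 without the 3 libraries, and 1 to 32 with a mouse left out. For diet in KO, 0 became 6 without the filter, 7 with only the 2 groups and 9 with quantile normalization, and 0 to 10 with a mouse left out. For diet averaged, 7 became 1 with the block and 1 without the 3 libraries, and 1 to 18 with a mouse left out. For the interaction, 0 became 1 without the filter, and 0 to 1 with a mouse left out.

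The log2 fold change turned sign without the 3 libraries for Mstn with diet in KO (-0.11), Ddit4 with diet in KO (0.62) and Trim63 with diet (-0.17). With quantile normalization it turned for Trim63 with diet (-0.00745), Ubb with diet (-0.0101) and Foxo3 with genotype (-0.0468). With a mouse left out the range crossed 0 for Ddit4 with diet in KO (-0.69 to 0.17), Fbxo32 with diet (-0.18 to 0.0183), Trim63 with genotype (-0.0765 to 0.10) and Foxo3 with genotype (-0.17 to 0.22).

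The replicate numbers were not used to pair the mice in the main fit. Deviations of same-numbered mice from their group means correlated between -0.806 and 0.387. With 3 mice in a group, such correlations cannot settle whether the numbers pair the mice. With the replicate number as a block, Cdkn1a passed for genotype (limma adjusted p = 0.0300), and Sesn3 (0.0758), Eda2r (0.0725), Hsd11b1 (0.0803) and Igfbp3 (0.0758) did not. Without a filter on low values Cdkn1a (0.0531), Fst (0.0519), Sesn3 (0.0696), Eda2r (0.0798), Hsd11b1 (0.0832) and Igfbp3 (0.0798) missed the threshold. With 3 mice in a group and FPKM alone, precision is limited for the genes of lowest level, Foxo3 and Sesn3.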
